A study of Xenopus laevis with 18 samples.

Results

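The libraries compared here cover organ formation in Xenopus laevis, the African clawed frog, in whole embryos of the J strain staged by the Nieuwkoop and Faber (NF) series. The 3 later libraries come from NF26, NF30 and NF33 and the 3 earlier ones from NF18, NF20 and NF23. Thus 6 of the series' 18 libraries enter the comparison, grouped by stage label, with earlier results of these data known. Every stage has 1 library, no group carries a treatment or mutation, and all embryos were raised in a dilute salt solution with gentamycin, an antibiotic, and snap frozen. RNA was depleted of ribosomal RNA rather than selected for poly(A) tails, and spike-ins, synthetic RNAs of the ERCC set, were read along with the frog transcripts. The sources used here do not say which clutch the embryos came from or how many were pooled per library.

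At the earlier stages the neural folds meet, fuse and sink in as the neural tube while somites form in sequence along the trunk. At the later stages the tail bud extends, and muscle, heart, eye, pronephric kidney, gut and blood begin to differentiate while the embryo still lives on yolk. Transcripts in such an embryo can be maternal, laid down in the egg, or zygotic, made from the embryo's own genome after the midblastula. The table's row names are sequence names without gene symbols and none of them matched the reference gene table (0 matches), so rows are described by their time course, and tissue markers could not be used to check the stage labels.

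More frog RNA was read per spike-in in the later embryos, and more transcripts were detected. The total of all Xenopus rows per spike-in total was 3.12 at NF26, 4.14 at NF30 and 4.20 at NF33, against 1.89 at NF18, 2.09 at NF20 and 2.88 at NF23. The groups did not overlap, and the later mean of 3.82 ± 0.603 (SD, n = 3) was 1.67-fold the earlier mean of 2.29 ± 0.526 (SD, n = 3). With 3 libraries against 3 the exact permutation test cannot go below p = 0.1, which this ratio reached (2-sided, adjusted 0.2 over 4 library measures). NF23 lay closer to NF26 than to NF20. Counted against only the 26 spike-ins whose values carry no sign of rescaling, NF23 was at 19.1 and NF26 at 18.9, so the groups overlapped and the ratio of means was 1.59. By the median over spike-in rows, relative to the earlier mean, NF23 was at 1.25 and NF26 at 1.22. The groups overlapped there too, with a ratio of means of 1.63 (p = 0.2 by the exact permutation test). The sources used here do not state how much spike-in was added per embryo or per mass of RNA, so this ratio is not an amount per embryo.

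Rows above 0 numbered 26464 at NF26, 26703 at NF30 and 27574 at NF33, against 23715 at NF18, 24188 at NF20 and 25770 at NF23, again without overlap (p = 0.1 by the exact permutation test, 0.2 after adjustment). TPM is a transcript's abundance corrected for its length and here scaled to a Xenopus total of 1000000. Rows that reached 1 TPM averaged 22331 ± 410 in the later libraries and 20217 ± 888 in the earlier ones (SD, n = 3 each). Rows that reached 10 TPM overlapped between the groups, at 11351 ± 524 later and 10795 ± 386 earlier (SD, n = 3 each; p = 0.3 by the exact permutation test, 0.4 after adjustment). With values taken per spike-in and scaled to a mean Xenopus total of 1000000, the same threshold of 10 was reached by 12060 rows at NF26, 13192 at NF30 and 13174 at NF33, against 8031 at NF18, 8615 at NF20 and 10838 at NF23, without overlap (p = 0.1 by the exact permutation test, ratio of means 1.40). All rows of a library are multiplied by 1 factor on that scale, so the count moves with the ratio of totals and is not a separate test. Its p was not adjusted. With a threshold of 20 TPM the later mean was the lower one, at 6747 ± 595 against 6918 ± 29.4 (SD, n = 3 each). The larger number of rows in the later libraries was thus seen in TPM at low thresholds and not at 20. Depth is unknown, because TPM keeps no depth, and its part in the number of detected rows was not tested.

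The single most abundant row was the same in all 6 libraries and took a smaller share of the later ones. It held 1.60% of the Xenopus total at NF26, 1.47% at NF30 and 1.41% at NF33, against 3.17% at NF18, 2.62% at NF20 and 2.21% at NF23. Per spike-in the same row overlapped between the groups, with a log2 difference (later minus earlier, here and below) of -0.07 against -0.82 in TPM (limma adjusted p = 0.923 and 0.0844). The 100 most abundant rows of each library held 30.0% ± 2.51 later and 28.7% ± 1.57 earlier (SD, n = 3 each; p = 0.4 by the exact permutation test, 0.4 after adjustment). Taken from the group means, 76 rows stood among the 100 most abundant in both groups. The 24 rows among them in the later group alone held 4.82% of the later total and 2.39% of the earlier one. The 24 found there in the earlier group alone held 2.53% later and 4.19% earlier.

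**Figure D1:**
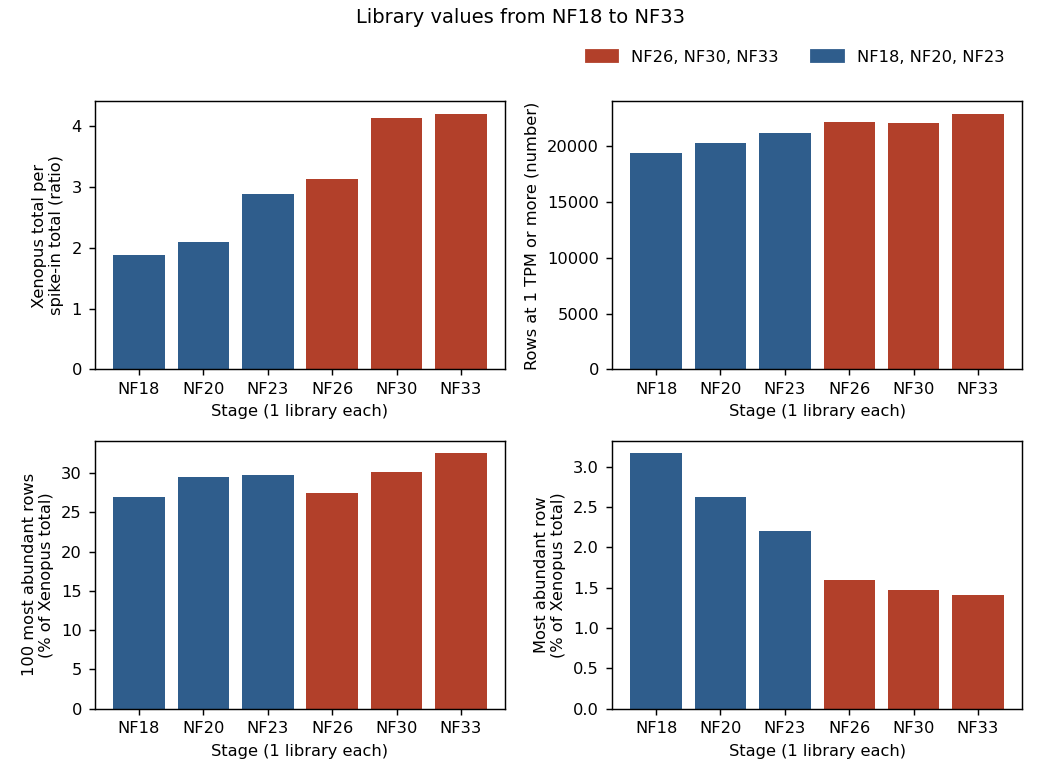
Bars give 1 library per stage in stage order, red for NF26, NF30 and NF33 and blue for NF18, NF20 and NF23. The panels show the Xenopus total per spike-in total (a ratio), the number of rows that reached 1 TPM, and the percent of the Xenopus total in the 100 most abundant rows and in the single most abundant row. The ratio spans 1.89 at NF18 to 4.20 at NF33, with NF23 and NF26 next to each other.

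In TPM the later embryos held many rows above and many below their earlier levels, but almost none passed the test between the groups. Of 22225 rows that averaged 1 TPM or more over the 6 libraries, 3 were called higher (0.0135%) and 0 lower (0%) by limma at an adjusted p under 0.05. At an unadjusted p under 0.05 there were 4340 higher and 2914 lower rows, together 32.6% of those tested, and 4031 rows had an adjusted p under 0.1. Every later library lay above every earlier one for 5317 rows (23.9%) and below for 3472 rows (15.6%). Among these, 2572 rows were also at least 2-fold higher (11.6%) and 999 at least 2-fold lower (4.49%). Of the 22225 rows tested, 171 lay above without overlap by at least 8-fold and 44 below. The median log2 difference over all rows was 0.07, and 53.8% of rows were higher.

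The spread behind this test is the spread between neighbouring stages of a group, so it holds real change within each group as well as technical spread. With 1 library per stage, stage change and technical spread cannot be told apart. When NF23 was left out, the same test called 3074 of 22225 rows higher and 1401 lower. Without NF18, NF20, NF26, NF30 or NF33 it called 1 to 8 rows higher and 0 to 2 lower, with 2848 to 3661 and 1457 to 3688 at an unadjusted p under 0.05. A straight trend over the order of the 6 stages, fitted in place of the groups, called 4562 rows rising (20.5%) and 4407 falling (19.8%). A fit that took its spread from all 18 libraries called 4024 higher (18.1%) and 2657 lower (12%).

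Per spike-in, most rows were higher in the later embryos. The median log2 difference was 0.72 and 87.8% of 22460 rows were higher. On this scale all rows of a library are multiplied by 1 shared factor, so the shift common to the rows restates the ratio of totals. That ratio had p = 0.1 by the exact permutation test (0.2 after adjustment), and the rows are not independent evidence for it. Limma called 6335 rows higher (28.2%) and 244 lower (1.09%) at an adjusted p under 0.05, of which 5417 and 215 differed at least 2-fold. The fit with its spread from all 18 libraries called 11597 higher (51.6%) and 479 lower (2.13%), and the straight trend 12205 rising (54.3%) and 674 falling (3%). These calls lie near the threshold. Only 2 rows had an adjusted p under 0.03, and the counts were 0 higher and 0 lower without NF20. They were 2 higher and 1 lower without NF18, 1 and 0 without NF30, and 1 and 0 without NF33. Without these and without NF20, 6780 to 7747 rows higher and 296 to 378 lower had an unadjusted p under 0.05. Without NF23 the counts were 11521 higher and 401 lower, and without NF26 they were 4479 and 245. When spike-ins were combined by their median ratio in place of their total, limma called 4 rows higher and 0 lower, with 9502 and 551 at an unadjusted p under 0.05. Without a test, every later library lay above every earlier one per spike-in for 11831 rows (52.7%) and below for 648 (2.89%). Of these, 6786 (30.2%) and 304 (1.35%) differed at least 2-fold. These counts were taken on the spike-in total, where NF26 stood above NF23. That order was reversed with unchanged spike-ins only and by the median over spike-in rows, for which such counts were not taken.

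Of the 22113 rows tested on both scales, 5317 were above without overlap in TPM, and all of these were above per spike-in too, which the ratio of totals fixes. Of the rows below without overlap in TPM, 648 were also below per spike-in, 2599 overlapped between the groups and 194 were above. Another 6095 rows overlapped in TPM and were above per spike-in. Most rows with a lower share of the Xenopus total thus showed no such difference per spike-in. In a whole embryo, fewer cells of a type and less RNA per cell cannot be told apart on either scale.

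In TPM, rows above outnumbered rows below at low abundance and rows below outnumbered rows above at moderate abundance. At means from 1 to 50 TPM most rows overlapped between the groups. Of 6669 rows with a mean of 1 to 5 TPM, 31.7% were above without overlap and 5.88% below. Of 2257 rows with a mean of 50 to 200 TPM, 16.3% were above and 34.8% below. The 684 rows at 200 TPM or more were nearly balanced, with 30.3% above and 31.7% below. Their median log2 difference was -0.04 in TPM and 0.71 per spike-in. The median in TPM was 0.45 for rows of 1 to 5 TPM and -0.29 for rows of 50 to 200 TPM. Per spike-in all 5 bins had a positive median, from 0.46 to 0.92, and the factor shared by all rows of a library enters each of them. Rows at 200 TPM or more held 56.8% of the later total and 54.6% of the earlier one.

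**Figure D2:**
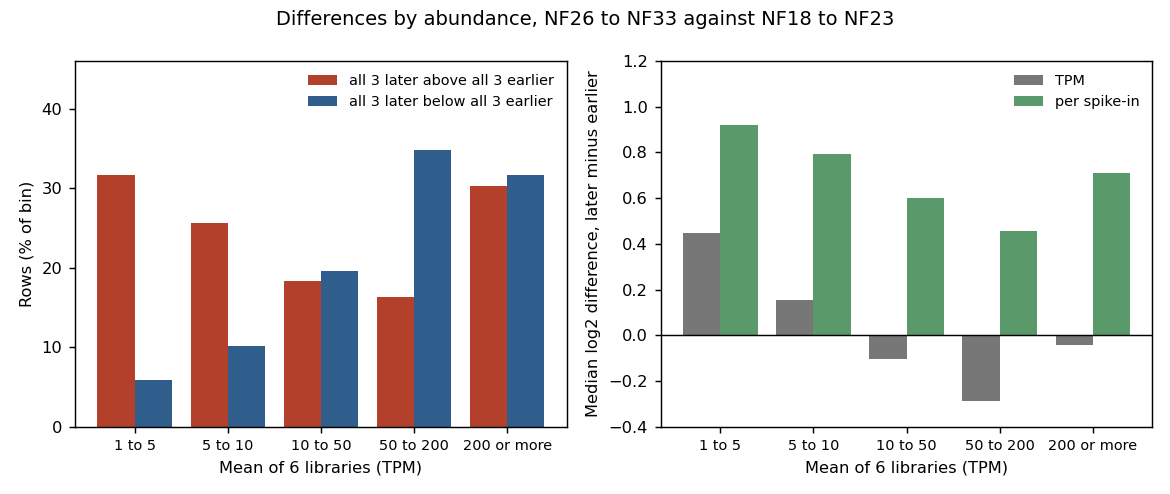
The left panel shows, for 5 bins of mean TPM, the percent of rows with all 3 later libraries above (red) or below (blue) all 3 earlier ones. The right panel shows the median log2 difference of each bin, later minus earlier, in TPM (grey) and per spike-in (green). Rows above outnumber rows below from 1 to 10 TPM and rows below outnumber rows above from 10 TPM, while the per spike-in medians are positive in every bin.

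The 2572 rows that lay above without overlap and at least 2-fold in TPM were followed back through the 12 libraries of NF0 to NF16, which the comparison does not use. They held 12.1% of the later total and 3.61% of the earlier one. Their summed share was 3.43% at NF0, 3.65% at NF6.5, 3.23% at NF9, 2.21% at NF10, 1.19% at NF12, 1.21% at NF16, 1.77% at NF18, 3.0% at NF20, 6.06% at NF23, 9.17% at NF26, 11.3% at NF30 and 15.8% at NF33. The share in the egg thus lay between those at NF20 and NF23, and it was lowest from NF12 to NF16 and larger at each later stage than at the one before. NF33 was the highest of all 18 libraries for 1418 of these rows, or 55.1%, against 12.1% of all rows tested. Choosing rows for higher later levels favours a maximum there, so this share describes the rows and tests nothing.

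By their level before NF18 these rows were split into rows not seen before, maternal rows and the rest. Under 1 TPM in all 12 libraries up to NF16 were 1073 of the 2572 rows, or 41.7%, against 9.56% of all rows tested. A row absent before was tested only if it averaged 1 TPM over the 6 libraries, which later values alone could bring about. The shares were therefore also taken over rows with an earlier-group mean of at least 1 TPM. There they were 27.3% of 1665 rows and 5.41% of 20444. The 1073 rows had medians of 0 TPM at NF16, 0.0746 at NF18, 0.477 at NF20, 1.5 at NF23, 3.87 at NF26, 4.72 at NF30 and 7.43 at NF33. They were thus mostly low even at the last stage, and 190 of them reached 10 TPM in all 3 later libraries. Together they held 1.56% of the later total and 0.209% of the earlier one.

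A maternal part was present in the egg and at a lower median by NF16. The level of this part from NF0 to NF6 was set by the split. Its low level at NF18 to NF23 and higher level after NF23 follow from how the rows were chosen. NF16 adjoins NF18 and had a similar median, so its low level is not independent of that choice. Of the 2572 rows, 602 averaged 10 TPM or more over NF0, NF2 and NF6. These are 23.4%, against 58.1% of all rows tested, so such rows were less common here than among all rows. Their median was 29.2 TPM at NF0, 25.7 at NF9, 8.14 at NF12, 3.73 at NF16, 3.48 at NF18, 11.9 at NF26 and 17.1 at NF33. The later mean was above the NF0 to NF6 mean for 147 of the 602. Among the 2572 rows, 551 (21.4%, against 44.7% of all rows tested) were highest between NF0 and NF9, so their later TPM lay below an earlier maximum. The remaining 897 rows were neither absent up to NF16 nor at 10 TPM or more from NF0 to NF6, and carried the largest share, 7.26% of the later total and 2.26% of the earlier one.

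The 999 rows that lay below without overlap and at least 2-fold in TPM mostly had their highest level in the gastrula and neurula. They held 3.93% of the later total and 10.3% of the earlier one. Their summed share was 9.78% at NF10, 14.2% at NF12, 14.8% at NF16, 13.4% at NF18, 7.23% at NF23, 5.28% at NF26 and 2.50% at NF33. A level of at least 10 TPM at some stage up to NF16 was seen for 903 of them, or 90.4%, against 70.4% of all rows tested. The highest of all 18 libraries was one of NF10 to NF16 for 578 rows, one of NF18 to NF23 for 205 and one of NF0 to NF9 for 216. These are 57.9%, 20.5% and 21.6% of the rows, against 18.0%, 11.2% and 44.7% of all rows tested. By their choice none of these rows can be highest at NF26 to NF33, where 26.1% of all rows tested are. The shares thus describe the rows and test nothing.

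These rows also had a maternal and a zygotic part, close to each other in number of rows but not in abundance. A mean of at least 10 TPM over NF0 to NF6 was found for 465 rows, or 46.5%, and a mean under 1 TPM for 443, or 44.3%, against 58.1% and 26.7% of all rows tested. The 465 maternal rows held 2.76% of the later total and 6.86% of the earlier one, and the 443 zygotic rows 1.04% and 3.03%. The maternal rows kept a median between 75.6 and 84.3 TPM from NF0 to NF12 and then stood at 59.6 TPM at NF18, 29.4 at NF23, 21.7 at NF26 and 10.11 at NF33. The 443 zygotic rows had a median of 0 TPM up to NF8, 0.384 at NF9, 1.86 at NF10, 21.8 at NF12, 31.0 at NF16, 26.4 at NF18, 12.2 at NF23, 7.45 at NF26 and 2.32 at NF33. Their median thus had a single maximum, at NF16. The other 91 rows averaged between 1 and 10 TPM over NF0 to NF6. Per spike-in, 608 of the 999 rows were also below without overlap, 391 overlapped and 0 were above, with a median log2 difference of -0.76, against -1.38 in TPM.

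**Figure D3:**
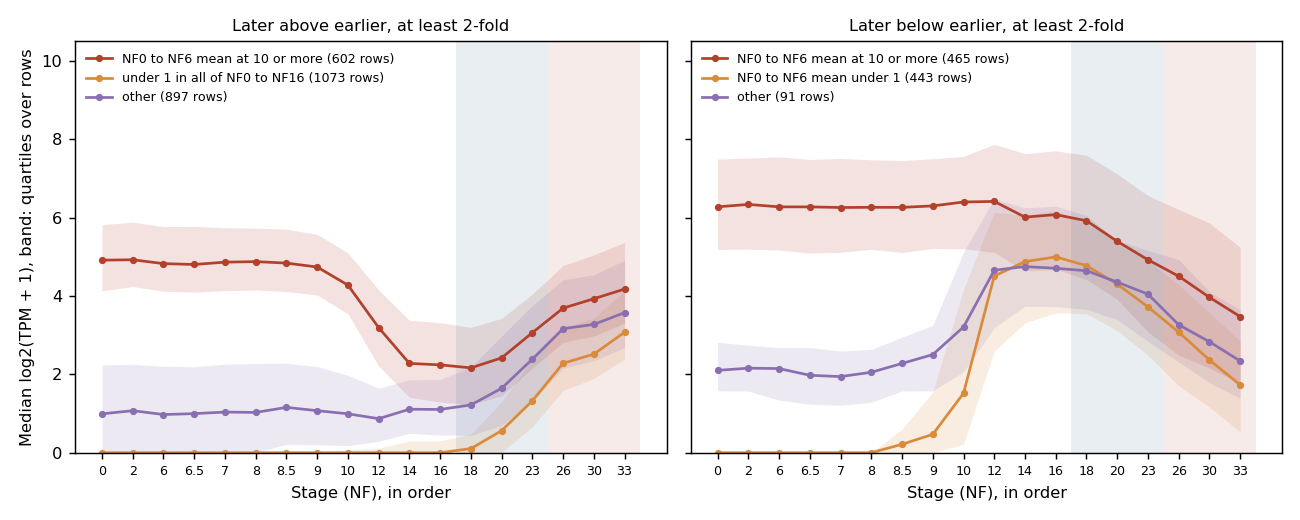
Lines give the median log2(TPM + 1) over rows at each of the 18 stages, in stage order, and bands the quartiles over rows. Rows at least 2-fold above (left) or below (right) without overlap are split by their level before NF18; blue shading marks NF18 to NF23 and red shading NF26 to NF33. Absent rows appear from NF18 on by their definition, and maternal rows on the left dip by NF14 and return. The rows on the right that were under 1 TPM at first have a maximum around NF16. The rise on the left and the fall on the right between the shaded groups follow from the choice of rows. The split by level sets the maternal level from NF0 to NF6.

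The differences built up over the whole span from NF18 to NF33. Among the 2572 rows above, the median log2 step was 0.34 from NF18 to NF20, 0.68 from NF20 to NF23, 0.69 from NF23 to NF26, 0.20 from NF26 to NF30 and 0.35 from NF30 to NF33. The largest of the 5 steps ended at NF23 for 883 rows and at NF26 for 756. Every step went up for 802 of these rows, or 31.2%, against 5.28% of all rows tested. Among the 999 rows below, the median step was nearly constant, between -0.45 and -0.54, and every step went down for 556 rows, or 55.7%, against 6.79% of all tested. A group difference favours such courses by the way these rows were chosen, so these shares describe the rows and test nothing.

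Between neighbouring stages, the step that joins the groups was the smallest of the 6 from NF16 to NF33 in TPM. Among 11346 rows averaging 10 TPM or more, 2.92% differed 2-fold or more from NF23 to NF26, against 4.46% from NF16 to NF18, 7.38% from NF18 to NF20, 6.43% from NF20 to NF23, 3.31% from NF26 to NF30 and 3.67% from NF30 to NF33. In TPM the balance of higher and lower rows turned within the span. From NF18 to NF20 659 rows were 2-fold higher and 178 lower, and from NF20 to NF23 571 and 159, while from NF26 to NF30 138 were higher and 237 lower, and from NF30 to NF33 156 and 260. Per spike-in the step from NF20 to NF23 stood out at 12.8%, with 1416 rows higher and 44 lower. Rows higher also outnumbered rows lower per spike-in from NF26 to NF30, at 454 against 80, and the balance turned only from NF30 to NF33, at 187 against 262. Each step sets 1 library against 1 and has no replicate check.

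From any given stage, distances grew with each further stage in the same direction. Over the same 11346 rows, 39.7% differed 2-fold or more between NF33 and NF18 and 24.1% between NF26 and NF18. Between NF30 and NF23 the share was 7.05%, and between NF23 and NF18, within the earlier group, it was 17.3%. The earlier group thus held more change among its own stages than lay between its last stage and the middle of the later group.

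The kind of deposited column goes with the groups and cannot be told apart from them. In NF18, NF20 and NF23 the spike-in rows had been divided by fixed factors before deposit, while in NF26, NF30 and NF33 they had not. The Xenopus rows carried no sign of this. Within the comparison the change of kind falls on the step from NF23 to NF26, the smallest one for Xenopus rows in TPM. TPM here leaves the spike-ins out, so a small step in TPM cannot show what the division did. Per spike-in, 3.51% of Xenopus rows differed 2-fold or more in this step. For spike-in rows this step was the largest, with 4 of 51 rows differing 2-fold or more, against 1 or 2 in the other steps. The robust SD of their log2 change was 0.19, against 0.11 to 0.14. The kind also changes from NF16 to NF18, where 1 of 51 spike-in rows differed 2-fold or more, with a robust SD of 0.13. Tested between the groups, 0 of 75 spike-in rows were called by limma at an adjusted p under 0.05, 3 had an unadjusted p under 0.05, and their median log2 difference was 0.06. Spike-in rows were divided by their own total here, so a shift shared by all of them could not be seen. A curve over all 18 stages with the kind of column as a term called 7317 of 22225 rows higher and 5490 lower in TPM. Per spike-in it called 14703 of 22460 rows higher and 1209 lower.

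**Figure D4:**
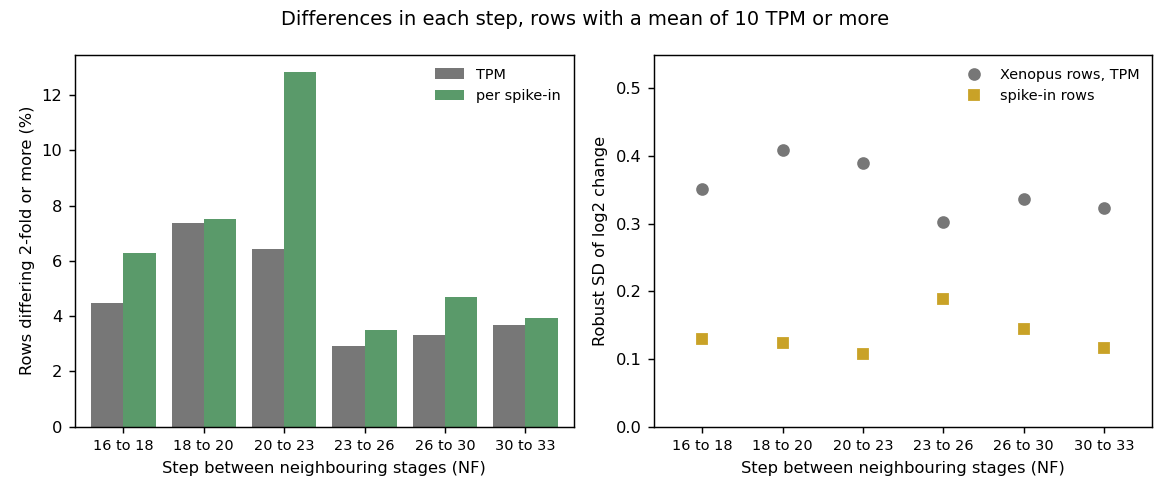
The left panel shows the percent of Xenopus rows averaging 10 or more that differed 2-fold or more in each step, in TPM (grey) and per spike-in (green). The right panel shows the robust SD of the log2 change in each step for Xenopus rows in TPM (circles) and for spike-in rows (squares). The step from NF23 to NF26 is the smallest for Xenopus rows, at 2.92% in TPM, and the largest for spike-in rows, at a robust SD of 0.19.

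The 3 rows called higher in TPM were all listed at or near 0 in the earlier libraries, and their histories differ. XeXenL6RMv10007972m stood at 13.7 TPM at NF26, 34.2 at NF30 and 20.0 at NF33, against 0 at NF18, 0.145 at NF20 and 0 at NF23. It was at 0.126 TPM or less in all 12 libraries before NF18. Its log2 difference on the log2(TPM + 1) scale was 4.41 (standard error 0.352, limma adjusted p = 0.0185), and per spike-in the adjusted p was 0.0321. The call in TPM was lost without NF18, NF20, NF26 or NF33 and under 3 other settings (limma adjusted p of 0.0540 to 0.191). The per spike-in call was lost without NF18, NF20, NF30 or NF33 (limma adjusted p of 0.0866 to 0.138).

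XeXenL6RMv10022286m stood at 24.6 TPM at NF26, 46.2 at NF30 and 26.1 at NF33, and was listed at 0 at NF18, NF20 and NF23 (limma adjusted p = 0.00381, and 0.0644 without NF26 and 0.0520 without NF33). It was also listed at 0 in 11 of the 12 libraries before NF18 but at 86.1 TPM at NF7, between libraries at 0. Its per spike-in call was lost without NF20, NF30 or NF33 (limma adjusted p of 0.0529 to 0.0784). The remaining called row stood at 14.7, 14.5 and 16.8 TPM at NF26, NF30 and NF33 and was listed at 0 at NF18, NF20 and NF23. It had been at 15.7 to 108 TPM in 10 of the 12 libraries before and at 0 in the other 2. A value of 0 is only a listing. In 50 cases a row was at 0 in 1 of the libraries NF20 to NF30 while both neighbouring stages were at 10 TPM or more. Each of these libraries had 10707 to 11932 rows at 10 TPM or more. Such gaps span 1 library, while the called rows were at or near 0 in all 3 earlier ones. Longer gaps were not counted. X. laevis has an allotetraploid genome with many near-identical gene copies, so reads of 1 gene can be given to its copy, and each single-row value carries that limit.

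No row met the naming rule in the other direction, and the pair with the most negative log2 difference without overlap on both scales was chosen after the values were seen. XeXenL6RMv10013285m stood at 43.5 TPM at NF26, 1.64 at NF30 and 0.198 at NF33, against 658 at NF18, 220 at NF20 and 70.5 at NF23. Its values descend through all 6 stages, and the log2 difference was -5.39 (standard error 1.34, limma adjusted p = 0.0732, and 0.0352 per spike-in). It came up from 4.65 TPM at NF10 to 310 at NF12 and its maximum of 945 at NF16. XeXenL6RMv10023732m stood at 3.76 TPM at NF26, 1.28 at NF30 and 0.743 at NF33, against 166 at NF18, 104 at NF20 and 30.1 at NF23. Its log2 difference was -4.94 (standard error 0.638, limma adjusted p = 0.0717, and 0.0342 per spike-in), and it was at 3.53 TPM or less up to NF10. Both were thus near 0 in the egg and had their maximum at NF16 or NF18. Neither kept the per spike-in call without NF18, NF20, NF30 or NF33 (limma adjusted p of 0.0928 to 0.140). The same held with the median ratio over spike-ins (limma adjusted p of 0.0503 for each). Without NF23 both rows were called in TPM, at 0.040 and 0.0109.

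**Figure D5:**
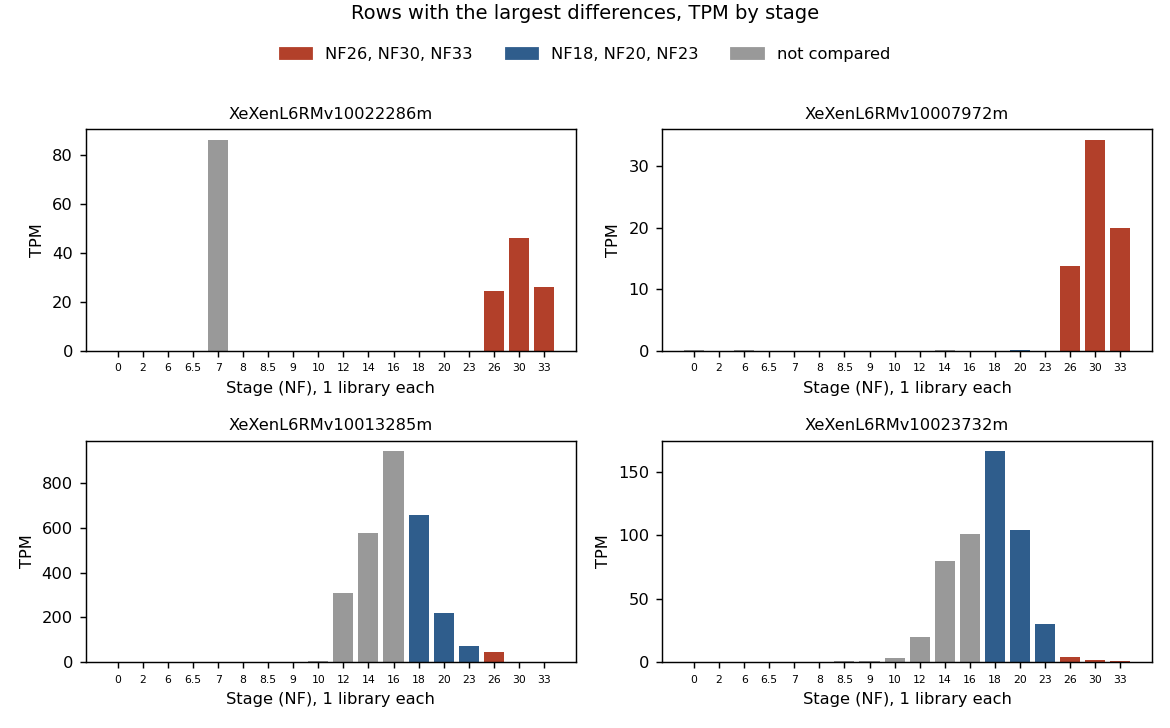
Bars give TPM in each of the 18 libraries for the 2 rows with the largest rise by the naming rule (top) and the 2 rows with the most negative difference (bottom), red for NF26, NF30 and NF33, blue for NF18, NF20 and NF23 and grey for libraries that were not compared. The top left row has a lone value of 86.1 TPM at NF7, and the bottom rows have their maximum at NF16 and NF18.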

How the data were processed

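Whole-embryo rRNA-depleted RNA was measured in 18 libraries, and 6 were compared. Per the submitters' processing notes, CASAVA 1.8.2, Trimmomatic, Bowtie and RSEM were used, with no role or order given. The sources used here do not name the reference transcripts. Of 31085 deposited rows, 30993 were of Xenopus and 92 were spike-ins. In 9 columns the deposited values were TPM, since each column summed to 1000000 within rounding. In the other 9 deposited columns, NF18, NF20 and NF23 among them, the total exceeded 1000000 by 1.48% to 2.72%. There the Xenopus rows had 2 decimals as elsewhere, while spike-in rows had been divided by 4 (23 rows), 0.67 (20 rows) or 0.5 (23 rows), and 26 showed no change. Multiplying back returned each of these 9 columns to within 14.4 of 1000000. Division was read from values whole at hundredths of a TPM (tolerance 0.002 hundredths), except for 4 rows assigned from the column total. With these 4 rows left as deposited, the totals exceeded 1000000 by 35102 to 59277. The return to 1000000 is thus partly built in. The commercial ERCC set comes as a pair of mixes that differ by these ratios. Xenopus rows were therefore used as TPM and rescaled to 1000000 without spike-ins.

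Rows averaging 1 TPM or more were fitted on the log2(TPM + 1) scale in R 4.3.3, using limma 3.58.1 (eBayes with intensity trend, Benjamini-Hochberg adjustment over all rows tested, threshold 0.05), later minus earlier. Folds on this scale understate low rows. The same fit was run on values divided by the deposited spike-in total, scaled so that the 6 Xenopus totals average 1000000. Scripts were tested on simulated data. Library measures were compared by exact permutation tests (scipy 1.17.1, 20 splits, 2-sided). The robust SD is the scaled median absolute deviation. The naming rule asked for an adjusted p under 0.05 on both scales, at least 10 TPM in the higher group and no overlap, and took the largest 2 in each direction. Gene lists by symbol were not run, because row names could not be matched. The groups, lists and tests were chosen with earlier results of these data known, and the 2-fold classes after their values were seen. P-values measure only the spread between these libraries, and TPM keeps no depth, so no counting interval or floor is given.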

Additional observations from a re-analysis of the deposited data

How the results depend on the processing

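The number of called rows differed between fits, filters on low values, ways of scaling by spike-ins and sets of libraries. In TPM, where limma called 3 rows higher and 0 lower (4340 and 2914 at an unadjusted p under 0.05), the counts were 4024 and 2657 with the fit over all 18 libraries, 4562 and 4407 with a linear trend, 7317 and 5490 with a spline plus the kind of column, and 1 and 0 (2602 and 2628 unadjusted) when rows had to average 5 TPM. That filter also turned the median log2 difference to -0.063. Leaving out 1 library gave 1 to 3074 higher and 0 to 1401 lower. Per spike-in, where 6335 were higher and 244 lower, the counts were 11597 and 479 over all 18 libraries, 12205 and 674 with the trend, 14703 and 1209 with the spline, 3805 and 145 with no filter on low values, and 4 and 0 with the median ratio over spike-ins. With unchanged spike-ins only, an alternative chosen after seeing the data, 2875 were higher. Leaving out 1 library gave 0 to 11521 higher and 0 to 401 lower. Other pseudocounts and, in TPM, median ratio scaling kept the counts within 1.5 times. Leaving out a library also leaves fewer degrees of freedom, and the cause of these shifts, in either direction, was not tested.

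As later over earlier, the number of rows at 10 TPM or more was 1.05, turned to 0.975 at 20 TPM and was 1.40 on the spike-in scale, and the share of the top 100 rows was 1.04 and turned to 0.878 for the top 20. Without 1 library the Xenopus total per spike-in was 1.54 to 1.92, rows above 0 were 1.08 to 1.12, rows at 10 TPM 1.02 to 1.07 and the top 100 share 1.0 to 1.09. The step from NF23 to NF26 was 1.77% with pseudocount 5 and 3.51% per spike-in. Rows absent up to NF16 by a threshold of 0.5 TPM made up 31.3% of the 2572 rows above, against 6.70% of all rows tested. No paired analysis was possible because replicate numbers follow accession order and pair no libraries. Depth is unknown, so what it limits could not be set.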
